A study of Homo sapiens with 4 samples.

Results

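The m6A writer complex is the assembly of proteins that places N6-methyladenosine (m6A) on mRNA, and the transcripts of its own genes were examined here by m6A-seq. The members were named by symbol as METTL3, METTL14, WTAP, VIRMA, ZC3H13, CBLL1, RBM15 and RBM15B, 8 genes in all beside 14911 gene names with counts. Counts were listed for 7 of the 8 members. RBM15 had no listed count and was not analysed here. The minimum for testing, a mean count of 50 across the 4 libraries, was reached by 6 members and by 5320 genes in all, and CBLL1 lay below it.

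HEK293T cells, a line from human embryonic kidney with the SV40 large T antigen, were exposed to X-rays in every group. The shCTL cells carried a control short hairpin RNA and the shA5 cells one against the m6A eraser ALKBH5 (genotype shALKBH5). From each population an input library (fragmented polyA RNA) and an m6A-IP library (the same RNA pulled down with an antibody against m6A) were sequenced, which gave 4 libraries with 1 per group. No difference therefore has a replicate check. Which ALKBH5 hairpin was used for these libraries is not given in the sources used here, and without unexposed cells an effect of X-ray exposure on the members was not tested.

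In the writer complex METTL3 is the catalytic subunit and METTL14 its partner, which holds the RNA substrate. A larger set of regulatory proteins keeps this pair in nuclear speckles and brings it to its target transcripts, mostly at a short motif that contains GGAC. ALKBH5 and FTO remove the mark, and YTH and IGF2BP proteins read it.

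Library totals were 2237819 counts for shCTL input, 3944402 for shCTL m6A-IP, 1311390 for shA5 input and 3148119 for shA5 m6A-IP. Levels are in CPM, the count scaled to a library total of 1000000. For each gene, m6A enrichment was taken as log2 of IP CPM over input CPM after a pseudocount of 0.5 CPM was added to both, and its change as the shA5 value minus the shCTL value. All 95% intervals are exact, are for values without the pseudocount and cover counting error only, since no molecular identifiers are given. The floor of 3 counts corresponds to 1.34 CPM in shCTL input and 2.29 CPM in shA5 input, the shallowest library. The targeted gene ALKBH5 had 486 counts (217 CPM) in shCTL input and 145 (111 CPM) in shA5 input, which is -0.97 on the log2 scale (95% interval -1.25 to -0.70). Its m6A-IP levels were 363 CPM in shCTL and 187 CPM in shA5, so ALKBH5 RNA was lower in both shA5 libraries.

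The writer genes differed widely in m6A enrichment, and by point estimate WTAP was the only tested member whose enrichment differed by at least 1.5-fold between the cell populations. That is 1 of 6 members with a lower value in shA5 and 0 with a higher value, against 5.09% and 5.38% of all tested genes, and it was 0 of 6 with the mitochondrial reference described below and at 2-fold. The interval of the WTAP change (-1.17 to -0.17) included changes under 1.5-fold. Those of METTL14 (-0.72 to 0.16) and ZC3H13 (-0.64 to 0.62) reached past it. RBM15B and WTAP had at least 1.5-fold more IP than input in shCTL, 2 of 6 tested members against 22.5% of all tested genes. In shA5 only RBM15B did, 1 of 6 members against 24.3% of genes. Use of the most-counted transcript alone added WTAP in shA5, 2 of 6 members against 26.0% of genes. VIRMA lay at or beyond 1.5-fold in the other direction in both populations, 1 of 6 members against 30.3% of genes in shCTL and 31.7% in shA5. These counts describe 6 genes in 4 libraries.

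Enrichment by library totals is relative to the whole library. Mitochondrially encoded mRNAs held 45868 counts in shCTL input, 39431 in shCTL m6A-IP, 30649 in shA5 input and 31998 in shA5 m6A-IP, a smaller part of each IP library than of its input. With 7 of these mRNAs as the reference, the median enrichment of all tested genes was 0.91 in shCTL and 1.10 in shA5 in place of -0.11 and -0.096, and 5 of 6 members passed 1.5-fold in each population, as did 63.7% of all tested genes in shCTL and 68.9% in shA5. Every enrichment below is therefore a position relative to other mRNAs.

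**Figure D1:**
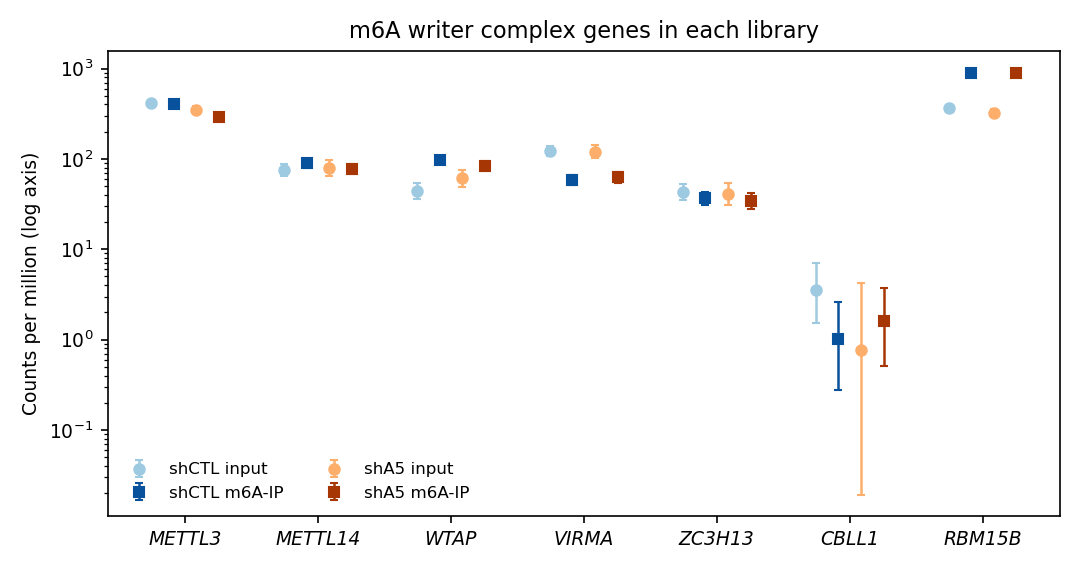
Levels in CPM on a log axis for the 7 members with counts in each of the 4 libraries, 1 point per library, with exact 95% Poisson intervals that cover counting error. RBM15B stood at 888 and 882 CPM in the IP libraries against 370 and 320 CPM in the inputs, and CBLL1 rested on 1 to 8 counts per library.

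METTL3, the catalytic subunit, was counted on 1 transcript, ENST00000298717 (hg38, chr14:21498138-21511340, minus strand, 11 exons). It had 925 counts (413 CPM) in shCTL input, 1600 counts (406 CPM) in shCTL m6A-IP, 460 counts (351 CPM) in shA5 input and 905 counts (287 CPM) in shA5 m6A-IP. The shA5 m6A-IP held the lowest level of the 4 libraries. Enrichment was -0.027 (95% interval -0.14 to 0.091) in shCTL and -0.29 (-0.45 to -0.12) in shA5, a change of -0.26 (-0.46 to -0.056). The interval of this change lay below 0, as it did for 2 of 6 members (METTL3 and WTAP) and for 8.06% of all tested genes. With mitochondrially encoded mRNAs as the reference the change was -0.095 and its interval (-0.30 to 0.11) included 0, while the median change of all tested genes was 0.17. Input RNA of METTL3 was also lower in shA5, with a change of -0.24 (-0.40 to -0.074), and both changes were under 1.5-fold. With the mitochondrial reference the input change was -0.43, beside a median of -0.21 for all tested genes.

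METTL14, the partner that holds the substrate RNA, was also counted on 1 transcript, ENST00000388822 (chr4:118685392-118715430, plus strand, 11 exons), of whose length the 3′ UTR makes up 77.2%. It had 170 counts (76.0 CPM) in shCTL input, 351 counts (89.0 CPM) in shCTL m6A-IP, 104 counts (79.3 CPM) in shA5 input and 241 counts (76.6 CPM) in shA5 m6A-IP. These 4 levels lay close together. Enrichment was 0.23 (-0.040 to 0.50) in shCTL and -0.051 (-0.39 to 0.30) in shA5, and the change of -0.28 (-0.72 to 0.16) was not detectable at this depth. Input RNA differed by 0.062 (-0.30 to 0.42), and by -0.13 with the mitochondrial reference described above. The catalytic pair thus had near equal point estimates for the change of enrichment, and the interval excluded 0 for METTL3, which had more counts.

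WTAP, the adaptor that brings the catalytic pair to nuclear speckles, had 100 counts (44.7 CPM) in shCTL input, 385 counts (97.6 CPM) in shCTL m6A-IP, 80 counts (61.0 CPM) in shA5 input and 264 counts (83.9 CPM) in shA5 m6A-IP. Both IP levels were above both input levels, and the gap was narrower in shA5. Enrichment was 1.12 (0.81 to 1.46) in shCTL and 0.46 (0.093 to 0.84) in shA5. The change of -0.66 (-1.17 to -0.17) made WTAP the 1 member of 6 with enrichment at least 1.5-fold lower in shA5, against 5.09% of all tested genes, and 3.72% of tested genes had a lower value. The input change was 0.44 (0.0065 to 0.89) and the IP change -0.22 (-0.45 to 0.011). With mitochondrially encoded mRNAs as the reference the change was -0.50, short of 1.5-fold, with 0.26 (-0.18 to 0.70) for the input and -0.24 (-0.47 to -0.013) for the IP, so how much of it lies in the input depends on the reference.

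**Figure D2:**
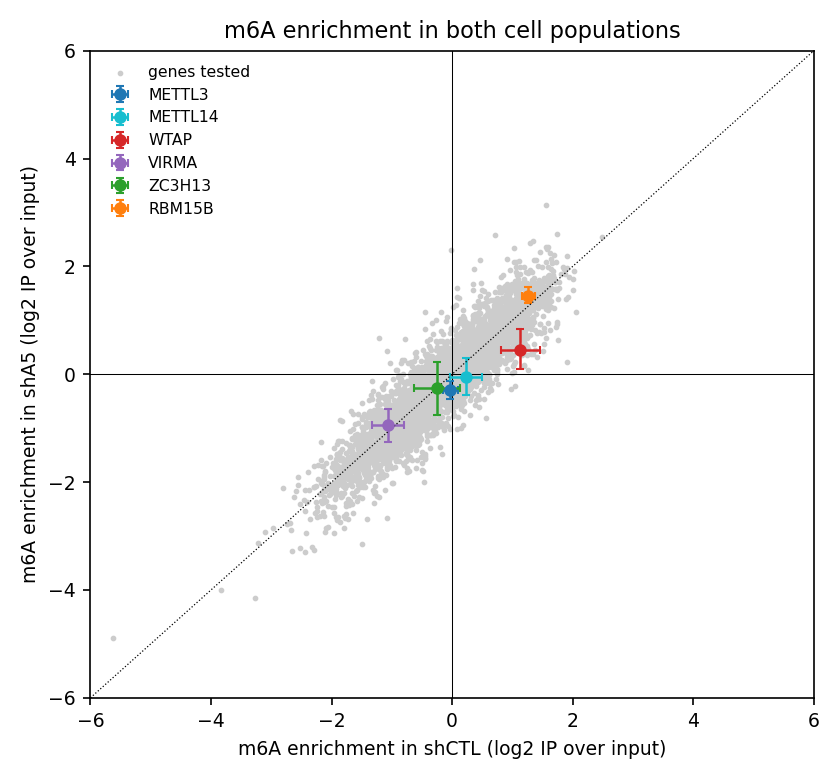
m6A enrichment (log2 IP over input) in shCTL on the x axis and in shA5 on the y axis, with tested genes in grey, the 6 tested members in colour with exact 95% intervals, and a dotted line where both are equal. WTAP at 1.12 and 0.46 lies below the line, while RBM15B at 1.26 and 1.46 and VIRMA at -1.06 and -0.95 lie near it.

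Most WTAP counts were listed under a shortened transcript. ENST00000337387 (chr6:159727588-159749415, plus strand, 6 exons, 1622 bases) has an open reading frame of 151 codons and held 77 of 100 counts in shCTL input, 345 of 385 in shCTL m6A-IP, 62 of 80 in shA5 input and 237 of 264 in shA5 m6A-IP. The full-length transcript ENST00000621533 (chr6:159727506-159756319, 8 exons, 2105 bases), with 396 codons, had 20, 38, 18 and 23 counts in the same order. In shCTL the Clopper-Pearson 95% interval of the short transcript's share was 67.5 to 84.8% in the input and 86.1 to 92.5% in the m6A-IP. In shA5 its share was 77.5% (66.8 to 86.1%) in the input and 89.8% (85.5 to 93.2%) in the m6A-IP, so the shares differed between input and IP by more than between the populations.

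In both populations the short WTAP transcript was the more enriched of the pair. Its enrichment, here without a pseudocount, was 1.35 (0.99 to 1.72) in shCTL and 0.67 (0.26 to 1.10) in shA5, and that of the full-length transcript was 0.11 (-0.71 to 0.97) and -0.91 (-1.86 to 0.066). The difference between them was 1.24 (0.29 to 2.14) in shCTL and 1.58 (0.51 to 2.63) in shA5. Enrichment was lower in shA5 for either transcript, by point estimates of -0.67 (-1.24 to -0.11) for the short and -1.02 (-2.31 to 0.28) for the full-length transcript. The values of the full-length transcript rest on 18 to 38 counts per library. The short transcript has 168 bases that no other annotated coding transcript covers and the full-length one 60, and the part of read assignment in the split between them was not tested.

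The GGACT motifs of the WTAP transcripts are shown because none is in both. The transcripts share 576 bases, and 1046 bases of the short one are outside the long one. All 3 motifs of the short transcript lie in the 3′ UTR part of its last exon (exon 6, chr6:159748191-159749415), at chr6:159748605-159748609, chr6:159748889-159748893 and chr6:159749143-159749147. The full-length transcript has 4, at chr6:159727570-159727574 in the 5′ UTR in exon 1, at chr6:159755178-159755182 and chr6:159755575-159755579 in the coding part of exon 8, and at chr6:159756096-159756100 in its 3′ UTR. In the lines below, 5′ to 3′ on the plus strand of hg38, capitals mark the motif searched for, which need not be methylated.
WTAP short site 1: tgatggcgtcGGACTattccgaaga
WTAP short site 2: ataagactgtGGACTtcatgattgt
WTAP short site 3: atcttactgaGGACTgtacaaacat
WTAP long site 1: ggttgcggcgGGACTaggagcgcgg
WTAP long site 2: agtaccagcaGGACTacagcttctg
WTAP long site 3: agaatggcttGGACTcaagtgtaaa
WTAP long site 4: actaaaagttGGACTcattgatgga

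**Figure D3:**
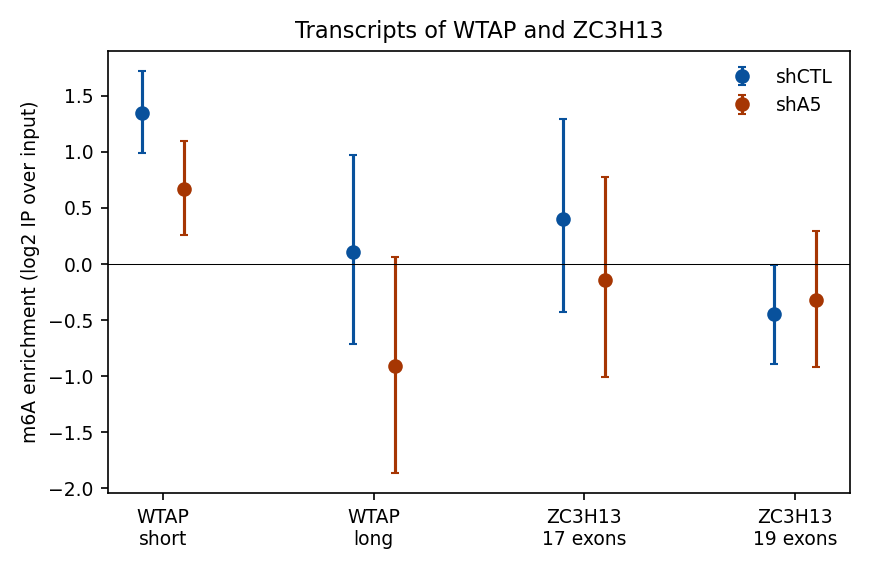
m6A enrichment (log2 IP over input, no pseudocount) of the 2 most-counted transcripts of WTAP and of ZC3H13 in shCTL and shA5, with exact 95% intervals. The short WTAP transcript lies at 1.35 and 0.67, above the long one at 0.11 and -0.91, and the intervals of the ZC3H13 transcripts overlap.

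VIRMA, the large scaffold that steers methylation towards 3′ UTRs, had 275 counts (123 CPM) in shCTL input, 232 counts (58.8 CPM) in shCTL m6A-IP, 158 counts (120 CPM) in shA5 input and 196 counts (62.3 CPM) in shA5 m6A-IP. Both IP levels were near one another and below both input levels. The transcript ENST00000297591, with 24 exons, held 272 of the 275 counts in shCTL input. Enrichment was -1.06 (-1.32 to -0.81) in shCTL and -0.95 (-1.26 to -0.64) in shA5, and 15.4% of tested genes had a lower value in shCTL. With mitochondrially encoded mRNAs as the reference these became -0.027 and 0.25, against medians of 0.91 and 1.10 for all tested genes, so VIRMA stayed below the median gene. The change of enrichment was 0.11 (-0.30 to 0.52) and that of input RNA -0.028 (-0.32 to 0.26).

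ZC3H13, which links WTAP to the RNA-binding subunits and keeps the complex in the nucleus, had 97 counts (43.3 CPM) in shCTL input, 144 counts (36.5 CPM) in shCTL m6A-IP, 54 counts (41.2 CPM) in shA5 input and 108 counts (34.3 CPM) in shA5 m6A-IP. Enrichment was -0.24 (-0.63 to 0.14) and -0.26 (-0.75 to 0.24), and the change was -0.015 (-0.64 to 0.62). The counts were split between ENST00000242848 (chr13:45954465-46052746, minus strand, 19 exons) and ENST00000282007 (17 exons). The first held 81.4% (72.3 to 88.6%) of the shCTL input counts and 68.5% (54.4 to 80.5%) of the shA5 input counts, with overlapping intervals. Enrichment of the second less that of the first was 0.85 (-0.10 to 1.85) in shCTL and 0.18 (-0.90 to 1.29) in shA5, so no difference between them was detectable.

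CBLL1, the E3 ubiquitin ligase also known as HAKAI, had 8 counts (3.57 CPM) in shCTL input, 4 (1.01 CPM) in shCTL m6A-IP, 1 (0.763 CPM) in shA5 input and 5 (1.59 CPM) in shA5 m6A-IP. Its enrichment intervals spanned -4.00 to 0.083 in shCTL and -2.10 to 6.62 in shA5, which leaves the direction undetermined. The only transcript of CBLL1 listed, ENST00000440859 (chr7:107744142-107761667, plus strand, 6 exons), has 0 bases that no other annotated coding transcript covers. Over all listed transcripts, those with 0 such bases had a median of 1 count in shCTL input (6257 transcripts) and those with at least 1000 had a median of 37 (6947 transcripts). ENST00000242848 of ZC3H13 also has 0 such bases and had 79 counts in shCTL input. How reads shared between transcripts were counted is not given in the sources used here, and its part in the low CBLL1 counts was not tested. GAPDH, an abundant glycolytic mRNA, had only 78 counts in shCTL input over 6 listed transcripts.

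RBM15B, a protein of the RNA-binding pair with RBM15 that brings the complex to its RNAs, had the highest enrichment of the members with transcripts summed. In shCTL its interval overlapped that of WTAP, and with the most-counted transcript alone WTAP stood higher there, at 1.33 against 1.26. Its single transcript ENST00000563281 (chr3:51391285-51397908, plus strand) has 1 exon of 6624 bases. It had 827 counts (370 CPM) in shCTL input, 3503 counts (888 CPM) in shCTL m6A-IP, 420 counts (320 CPM) in shA5 input and 2777 counts (882 CPM) in shA5 m6A-IP. The IP levels were near equal and both inputs were lower. Enrichment was 1.26 (1.16 to 1.38) in shCTL and 1.46 (1.31 to 1.61) in shA5, and 95.7% and 96.3% of tested genes had lower values. The change was 0.20 (0.010 to 0.38), with an interval above 0 as for 1 of 6 members and 8.18% of tested genes (0.36 with the mitochondrial reference), and the input change was -0.21 (-0.38 to -0.035), or -0.40 with the mitochondrial reference. An exon stretch of 1258 bases overlaps DCAF1 on the other strand, which had 91 counts (40.7 CPM) in shCTL input, 266 (67.4 CPM) in shCTL m6A-IP, 78 (59.5 CPM) in shA5 input and 232 (73.7 CPM) in shA5 m6A-IP. Without stated strand, reads of the overlapping genes cannot be told apart. The same holds for METTL3 with TOX4 over 345 bases and for the short WTAP transcript with SOD2 over 139 bases. TOX4 had 0 or 1 count per library. SOD2 had 319 counts (143 CPM) in shCTL input, 161 (40.8 CPM) in shCTL m6A-IP, 228 (174 CPM) in shA5 input and 133 (42.2 CPM) in shA5 m6A-IP, so its input level was higher in shA5, as that of WTAP was, and its part in the WTAP values was not tested.

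The GGACT motifs of RBM15B are shown because, with transcripts summed, it had the highest enrichment of the members in both populations. The 4 at chr3:51392288-51392292, chr3:51392311-51392315, chr3:51393027-51393031 and chr3:51393043-51393047 are in the coding sequence, and those at chr3:51394542-51394546 and chr3:51395165-51395169 are in the 3′ UTR, at 470 and 1093 bases past the stop codon. Capitals again mark the motif, 5′ to 3′ on the plus strand of hg38.
RBM15B site 1: cgccgccgtgGGACTgtcccgggag
RBM15B site 2: agcgggccctGGACTactacgggct
RBM15B site 3: gaccgagaccGGACTtttttggaag
RBM15B site 4: ttttggaaggGGACTggaccagccc
RBM15B site 5: ggctcagtctGGACTctacttacac
RBM15B site 6: ggagcacagtGGACTaggggatgcc

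Over the 6 tested members the median enrichment was 0.10 in shCTL (range -1.06 to 1.26) and -0.16 in shA5 (range -0.95 to 1.46), beside medians of -0.11 and -0.096 over 5320 genes. The median change of enrichment was -0.14 for the members, with 4 of 6 below 0 (ZC3H13 turned to 0.12 with its most-counted transcript alone), and 0.0036 for all tested genes, with 2636 of 5320 below 0. With mitochondrially encoded mRNAs as the reference ZC3H13 turned to 0.15, which left 3 of 6 below 0, and the medians became 0.026 for the members and 0.17 for all tested genes. At 1.5-fold, 0 of 6 members had higher enrichment in shA5 against 5.38% of tested genes. Input RNA was at least 1.5-fold higher in shA5 for 0 of 6 members against 3.44% of genes, and at least 1.5-fold lower for 0 of 6 against 6.43%. The median change of input RNA was -0.051 for the members and -0.020 for all tested genes, or -0.24 and -0.21 with the mitochondrial reference. The point estimates of input change after ALKBH5 knockdown thus lay within 1.5-fold for the 6 tested writer genes, as for most tested genes. By library totals their direction was mixed, and the interval of WTAP reached past 1.5-fold. With the mitochondrial reference METTL14 turned to -0.13 and only WTAP lay above 0. The intervals of METTL3 (to -0.59), ZC3H13 (to -0.77) and WTAP (to 0.70) then reached past 1.5-fold.

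**Figure D4:**
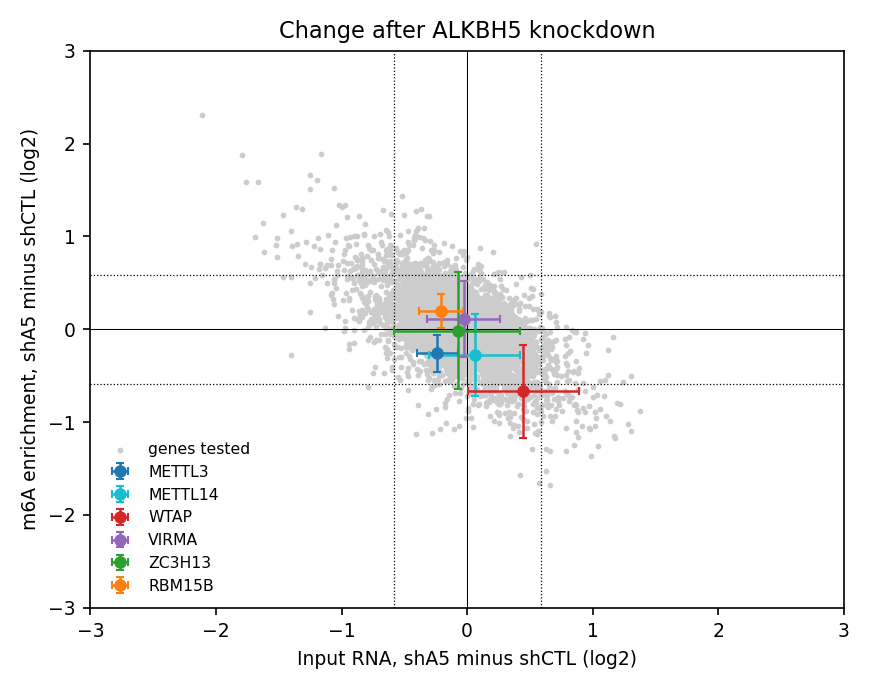
Change of input RNA (x axis) and of m6A enrichment (y axis), both shA5 minus shCTL on the log2 scale, for tested genes in grey and the 6 tested members with exact 95% intervals, and dotted lines at 1.5-fold. WTAP at 0.44 and -0.66 is the 1 member past a dotted line, and both axes use the input libraries, so the values on them are not independent.

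Compared between genes per kilobase of transcript, METTL3 had the highest counted level of the members in the inputs, with 209 CPM per kb in shCTL and 177 in shA5. RBM15B followed with 55.8 and 48.4 CPM per kb, WTAP with 25.8 and 35.7, VIRMA with 19.1 and 18.8, METTL14 with 11.4 and 11.9, ZC3H13 with 5.66 and 5.54, and CBLL1 with 0.897 and 0.191. By transcript length this order was the same in both inputs. The counting intervals of neighbours overlapped for WTAP and VIRMA in shCTL input and for RBM15B and WTAP in shA5 input. Within the catalytic pair METTL3 had the higher counted level, with a ratio to METTL14 of 18.3 in shCTL input and 14.8 in shA5 input. Per kb of bases that no other annotated coding transcript covers, an alternative chosen after seeing the data, the ratios were 23.6 and 19.1. On that scale the short WTAP transcript stood above RBM15B, at 205 against 69.7 CPM per kb in shCTL input and 281 against 60.4 in shA5 input, where METTL3 was at 282. The most-counted transcripts of ZC3H13 and CBLL1 have 0 such bases and get no value, so the order of the members depends on the length used. Only 1 of 2 annotated coding transcripts of METTL3 and 1 of 3 of METTL14 were listed, and the rule for shared reads is not given. By the same counting GAPDH had 78 counts in shCTL input. Whether the order and the ratios follow RNA abundance was therefore not tested.

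In shCTL the order of the members by enrichment with transcripts summed, from RBM15B down to VIRMA, was also their order by exon number of the most-counted transcript. With enrichment of that transcript alone WTAP at 1.33 and RBM15B at 1.26 were out of this order. RBM15B has 1 exon, WTAP 6, METTL14 and METTL3 11 each, ZC3H13 19 and VIRMA 24. In shA5 METTL3 at -0.29 and ZC3H13 at -0.26, summed, were out of it, by less than their intervals. Across 5292 genes with an annotated transcript, Spearman's coefficient between exon number and enrichment was -0.26 in shCTL and -0.26 in shA5, a description across genes that share the same libraries and are not independent replicates. The 226 tested genes with 1 exon had a median enrichment of 1.02 in shCTL and 1.13 in shA5, and 74.3% of them reached 1.5-fold in shCTL. The 778 genes with at least 20 exons had medians of -0.30 and -0.34, and 35.0% of them had IP at least 1.5-fold under input in shCTL, against 30.3% of all genes, so VIRMA at -1.06 was below most genes of its exon class. These classes were chosen after seeing the data.

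Neither motif density gave the order of the members by enrichment. GGAC occurred 5.59 times per kb in RBM15B, 4.63 in VIRMA, 4.55 in METTL3, 3.99 in ZC3H13, 2.47 in the short WTAP transcript and 2.41 in METTL14, against a median of 3.99 over the 5292 genes. Across those genes GGAC per kb had a Spearman's coefficient of 0.32 with enrichment in shCTL and 0.34 in shA5. The longer motif GGACT gave another order, with 2.02 per kb in METTL3, 1.85 in the short WTAP transcript, 1.54 in VIRMA, 0.998 in ZC3H13 and 0.906 in RBM15B, and METTL14 between VIRMA and ZC3H13, against a median of 0.960. Its coefficient with enrichment was 0.17 in both populations.

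**Figure D5:**
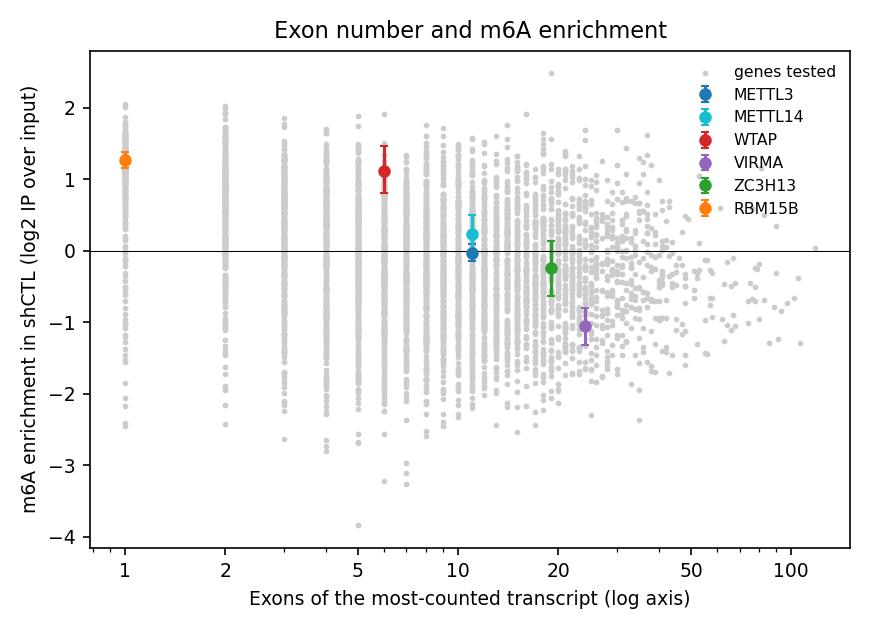
Exon number of the most-counted transcript (log axis) against m6A enrichment in shCTL (log2 IP over input) for tested genes in grey and the 6 tested members with exact 95% intervals. RBM15B with 1 exon lies at 1.26 and VIRMA with 24 exons at -1.06.

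Of 19 other genes of the m6A pathway (erasers, readers, and writers outside the complex), 9 were tested. At least 1.5-fold enrichment was found in both populations for 2 of the 9 (22.5% of all tested genes in shCTL and 24.3% in shA5), ALKBH5 (0.74 in shCTL and 0.76 in shA5) and the reader YTHDF1 (1.23 and 1.19). IP was at least 1.5-fold under input in both for 3 of the 9 (30.3% and 31.7% of all tested genes), the readers YTHDC2 (-1.22 and -1.89), IGF2BP1 (-1.55 and -1.48) and HNRNPC (-1.80 and -2.05). Enrichment was at least 1.5-fold lower in shA5 for 2 of the 9 (5.09% of all tested genes), YTHDC2 (-0.66, 95% interval -1.08 to -0.26) and IGF2BP3 (-0.65, -1.12 to -0.18), and higher for 0 (5.38%). ALKBH5 was the 1 gene of the 9 with input RNA past 1.5-fold, at -0.97. Of all tested genes 6.43% were at least 1.5-fold lower in shA5 and 3.44% at least 1.5-fold higher, and 1.30% had a lower value than ALKBH5. With mitochondrially encoded mRNAs as the reference 6 of the 9 were enriched in both populations (63.7% of all tested genes in shCTL and 68.9% in shA5). IP was then under input for 1 of the 9 in shCTL (HNRNPC, 4.91% of all tested genes) and for 2 in shA5 (HNRNPC and YTHDC2, 4.61%). Enrichment was lower in shA5 for 0 (2.65%), with YTHDC2 at -0.50 and IGF2BP3 at -0.49.

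Over the 4 libraries the 3 tested genes nearest to METTL3 in log2 CPM were MXD4 (Euclidean distance 0.25), PAXX (0.26) and GEMIN5 (0.31). With 407, 382, 338 and 336 CPM, from the shCTL input and IP to the input and IP of shA5, MXD4 had levels near those of METTL3 in each library. This describes likeness of level over 4 libraries and nothing further.

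Markers of the cell line were checked in the same libraries. All 7 HEK293 markers were listed, summing to 111 CPM in shCTL input, 180 in shCTL m6A-IP, 91.5 in shA5 input and 148 in shA5 m6A-IP. NEFL led them with 179 counts in shCTL input, while PAX2 had 1 count in shCTL m6A-IP and 0 in the other libraries, and VIM had 4 counts in shCTL input. Of 8 markers of other cell types 3 were listed, with sums of 183, 151, 124 and 82.6 CPM in the same order, led by COL1A1 with 401 counts in shCTL input. COL3A1 had 9 counts there and PECAM1 0, while PTPRC, CD3E, ALB, APOA1 and MYH7 had no listed count. The part of these differences in the member values was not tested.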

How the data were processed

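m6A-seq input and m6A-IP of X-ray-exposed HEK293T cells were analysed, 1 library for each of 4 groups. The deposited files hold raw counts for each Ensembl transcript, made by the authors. Per the submitters' processing notes, bcl2fastq 2.0, fastp 0.23.2, HISAT2, SAMtools 1.9 and MACS2 were used with hg38. The study's methods name StringTie for quantifying genes. The program behind these counts, its use of strand and its rule for shared reads are not given in the sources used here. Counts were summed per gene name and scaled to library totals. Enrichment used a pseudocount of 0.5 CPM, genes needed a mean of at least 50 counts, and the threshold was 1.5-fold. No p-value was computed. Exact 95% intervals were Poisson for levels, Clopper-Pearson for ratios and shares, and conditional odds ratios for changes of enrichment. The change of enrichment and its interval were tested on simulated Poisson counts, and the intervals of levels, ratios and shares were not.

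Depth ranged from 1311390 to 3944402 counts, so the shA5 input limits precision. Named genes were all members, ALKBH5, the pathway genes past 1.5-fold, and the 3 genes nearest to METTL3. The lists of cell markers were fixed before their counts were read for this report, but with earlier results of these data known. GAPDH, the overlapping genes and the markers given singly were named after their values were seen. Transcripts were named where they held at least 10% of a member's counts. The members and lists were chosen with earlier results of these data known. Alternatives were edgeR TMM factors, DESeq2 size factors, a mitochondrial reference, other pseudocounts, filters and thresholds, and other choices of transcripts. Exons, positions and sequences were from Gencode v44 on hg38, which held 98.1% of the listed transcripts. Analyses used Python 3.11.15, numpy 2.4.6, scipy 1.17.1, pandas 2.3.3, matplotlib 3.10.9, R 4.3.3, edgeR 4.0.16 and DESeq2 1.42.0. Called peaks were not analysed here.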

Additional observations from a re-analysis of the deposited data

Results flagged for a closer look

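For METTL14 and CBLL1 the m6A enrichment lay on opposite sides of 0 in shCTL and shA5, and the difference between the populations was not tested, since each group has 1 library. METTL14 was at 0.23 in shCTL and -0.051 in shA5, a change of -0.28 whose counting interval (-0.72 to 0.16) includes 0. With mitochondrially encoded mRNAs as the reference METTL14 was above 0 in both, at 1.26 and 1.14. CBLL1 was at -1.43 in shCTL and 0.73 in shA5, a change of 2.15 that rests on 8, 4, 1 and 5 counts and has a counting interval from -1.06 to 8.61.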

How the results depend on the processing

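No paired analysis was possible because there is 1 library in each group, and for the same reason no replicate could be left out. With edgeR TMM factors, DESeq2 size factors, pseudocounts of 0.1 and 2 CPM, and transcripts listed in all 4 files, each count of members past 1.5-fold and each median stayed within 1.5 times or 0.1 log2 of the reported value. The counts of members whose interval for the change of enrichment lay below 0 (2) or above 0 (1) were the same with TMM and DESeq2 factors, with the most-counted transcript and with transcripts listed in all files, were not run for the pseudocounts, and became 1 and 1 with mitochondrially encoded mRNAs as the reference, METTL3 being lost. The WTAP interval then ended at -6.8e-05, the edge of 0. The mitochondrial reference moved most results. Members at least 1.5-fold enriched became 5 in shCTL (from 2) and 5 in shA5 (from 1), beside 63.7% and 68.9% of all tested genes, those with IP under input 0 in both (from 1), beside 4.91% and 4.61%, and those with lower enrichment in shA5 0 (from 1), beside 2.65%. The members' medians became 1.13 in shCTL and 1.04 in shA5, 0.026 for the change of enrichment and -0.24 for the change of input RNA, with medians over all tested genes of 0.91, 1.10, 0.17 and -0.21. The 4 members below 0 in shA5 turned above it, VIRMA from -0.95 to 0.25, METTL3 from -0.29 to 0.91, ZC3H13 from -0.26 to 0.93 and METTL14 from -0.051 to 1.14, and in shCTL ZC3H13 turned from -0.24 to 0.78 and METTL3 from -0.027 to 1.01. The shifts of enrichment within a population follow from the lower mitochondrial share of its IP, and those of the changes mostly from the inputs (shCTL 2.05%, shA5 2.34%). Without a count filter, which adds CBLL1, 2 of 7 members were enriched in shA5 (24.5% of all genes), 2 had IP under input in shCTL (36.7%), 1 had higher enrichment in shA5 (22.7%) and 1 had lower input RNA in shA5 (19.9%), and the medians were -0.027 in shCTL, -0.051 in shA5 and -0.015 for the change of enrichment. A mean of at least 200 counts, which leaves 5 members, gave 0.23, -0.051 and -0.26. At 2-fold, 0 of 6 members had IP under input in shA5 (18.4% of tested genes) and 0 had lower enrichment in shA5 (0.771%). With the most-counted transcript alone, 2 of 6 members were enriched in shA5, WTAP being added, against 26.0% of tested genes. The small number of input counts in shA5 limits WTAP, ZC3H13 and CBLL1 most.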
